A study of Macaca mulatta with 304 samples.

Results

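The genes described here are 47 genes of DNA break and excision repair. They were chosen by symbol and known role in repair, as the rows of the deposited count table that carry these names, and all 47 were in the table of 21070 genes. All 47 also passed the filter on low counts, which 13751 genes passed. They fall into 8 roles: 4 damage and checkpoint kinases, 4 genes of the break ends, 4 of chromatin signalling at breaks, 7 of nonhomologous end joining, 10 of homologous recombination, 8 of single-strand break and base excision repair, 2 of mismatch repair and 8 of nucleotide excision repair.

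RNA was sequenced from whole blood of 28 healthy adult rhesus macaques (Macaca mulatta, Chinese sub-strain), 14 males and 14 females whose thorax received 1 photon dose. The 12 animals of the lower dose received 9.8 Gy and gave 151 irradiated samples, and the 16 animals of the higher dose received 10.7 Gy and gave 129. Control samples were drawn from 24 of these animals 2 days before irradiation, so each comparison is within animals and no animal without irradiation was followed in parallel. All animals received an opioid analgesic in the weeks after irradiation, and animals with fast breathing received dexamethasone, so time, these drugs and radiation cannot be told apart. Samples were divided into early (Day 3 to 21, samples of 28 animals), medium (after Day 21 to Day 90, 95 samples of 28 animals) and late (after Day 90, 53 samples of 16 animals). A control was at hand for 24 animals at early and medium time and for 14 at late time, and the late animals were those that lived long enough to be sampled. Animals that met illness criteria were euthanized. Of the late samples, 7 of series B and 36 of series C (defined below) came from 9.8 Gy animals and 10 of series C from 10.7 Gy animals, so dose and survival differ between the late group and the others.

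Between 2840219 and 23638161 reads per sample were counted on genes, with a median of 11697185 in control, 11789708 in early, 6905391 in medium and 6935207 in late samples. Library numbers in the labels fall into 3 ranges, called series A, B and C here. The meaning of these numbers is not stated. Control samples were of series A (20) and C (4), early samples of series A (100), B (8) and C (24), and medium and late samples of series B (19 and 7) and C (76 and 46). Only 4 animals at medium time and 1 animal at late time had a sample of the same series as their control, so series and time cannot be told apart for most animals after Day 21. Marker genes of blood cells were read in each animal. In controls the lowest summed levels were 1946 CPM for 10 erythroid genes, 1333 CPM for 10 T cell genes, 785 CPM for 7 neutrophil genes and 395 CPM for 10 B cell genes. CPM means counts scaled to a common library size in which the upper quartile sets the scale. In bulk blood, fewer cells of a type and less RNA per cell cannot be told apart.

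2 libraries stood apart. The Day 40 library of 1 animal of 10.7 Gy had 331674 CPM over the 10 erythroid genes and held the highest level of 8 of the 47 repair genes among all samples. The only late library of another 10.7 Gy animal, drawn on Day 120, had 68.9 CPM over the B cell genes and held the lowest level of 7 repair genes. The latter animal had no control and enters only the comparison of medium with late time. Results of the window comparisons that rest on either library are given with and without it. The Day 40 fit and the medium dose fit were not repeated without the animal of the Day 40 library.

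Cells meet DNA damage with several pathways. Kinases such as ATM and ATR read broken or single-stranded DNA and pass the signal to checkpoint kinases and to chromatin around the break. Broken ends are then joined directly by end joining or copied from a sister chromatid by recombination, while damaged bases, nicks, mispaired bases and bulky lesions are removed by the excision pathways. Blood lymphocytes are known to be sensitive to radiation. Lymphocyte precursors use end joining when they assemble antigen receptor genes, and dividing precursor cells use recombination.

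Sequence upstream of the gene is shown for ERCC2 and XRCC6. They are 2 of the 15 members called lower at late time by an adjusted p of at most 0.05 with a fold of at least 1.5. PARP1, PRKDC and UNG had lower log2 fold changes at late time and are not shown. Each run is 250 bases before the annotated start in RefSeq on Mmul_10, 5′ to 3′ on the strand of the gene, and capitals mark CCAAT on either strand. ERCC2 lies at chr19:45404891-45424104 (minus strand, exons of 2600 bases) with the run chr19:45424105-45424354. XRCC6 lies at chr10:9846826-9923543 (minus strand, exons of 2560 bases) with the run chr10:9923544-9923793.
ERCC2: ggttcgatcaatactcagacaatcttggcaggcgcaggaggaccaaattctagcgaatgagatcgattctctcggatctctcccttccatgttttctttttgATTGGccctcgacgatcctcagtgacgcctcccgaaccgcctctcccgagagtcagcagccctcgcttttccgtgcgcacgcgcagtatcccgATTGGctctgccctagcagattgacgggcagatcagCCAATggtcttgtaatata
XRCC6: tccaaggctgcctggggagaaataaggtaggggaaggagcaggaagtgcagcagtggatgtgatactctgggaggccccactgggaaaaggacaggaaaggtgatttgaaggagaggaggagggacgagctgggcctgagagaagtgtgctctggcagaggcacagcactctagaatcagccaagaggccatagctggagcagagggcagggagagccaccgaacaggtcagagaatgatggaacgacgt
ERCC2 carries CCAAT 3 times, starting 148, 55 and 19 bases before the annotated start. XRCC6 had none in the window of 300 bases (250 before to 50 after the start). Over these windows, CCAAT was found in 21 of 47 members (44.68%) and in 34.68% of 13655 promoters of tested genes. E2F-like words (TTTGGCGC, TTTCCCGC, TTTGCCGC or TTTCGCGC on either strand) were found in 4 members (8.51%) and in 4.32% of promoters, and these members were RNF168, PRKDC, RAD51C and MSH6. A p53 half-site was found in 1 member (2.13%), RBBP8, and in 5.72% of promoters. No CCAAT match overlapped an E2F-like match, and a match is a match of letters and not a measured site.

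Before irradiation the repair genes spanned a wide range of levels. Per kilobase of exon, the median over 24 control samples was lowest for XRCC3 (0.305 CPM) and highest for XRCC6, and the median of the 47 genes was 6.24 CPM per kilobase against 7.63 over 13655 tested genes with a length. XRCC6 and XRCC5, which encode the Ku proteins that ring a broken end, had the highest levels, with 69.9 to 149.3 CPM per kilobase over the control samples for XRCC6 and a median of 74.2 for XRCC5, followed by medians for NBN (62.5), PARP1 (37.5), APEX1 (26.6), PRKDC (25.7) and ATM (22.6). The medians of RAD54L, CHEK1 and BRCA2 were 1.54, 0.90 and 0.699 CPM per kilobase. The coefficient of variation over the 24 control samples had a median of 21.5% and was lowest for ERCC6 (12.5%). NBN and XRCC2 varied most. NBN ran from 34.5 to 383 CPM between control samples (58%) and XRCC2 from 2.56 to 27.7 CPM (57%). XRCC3 is read from few counts (median 12.5 in controls, and 0 in 14 samples), and 57.1% of its exon bases lie in exons of genes on the opposite strand. The same holds for over 5% of the exon bases of ERCC1 (34.6%), OGG1 (34.2%), TP53BP1 (16.3%), RAD54L (9.32%), RAD52 (8.66%) and DCLRE1C (5.28%). Use of strand in the counting is not stated, so values of these 7 genes are uncertain.

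Genes were called when the adjusted p was at most 0.05 and the fold change at least 1.5, and changes are log2 fold changes ± standard error from edgeR on counts summed per animal. At early time 3 of 47 members rose and 0 fell, where 5.79% of all tested genes rose and 1.75% fell. At medium time 1 rose and 2 fell, against 4.48% and 1.27% of all genes. At late time 2 rose and 15 fell, against 14% and 18.5% of all genes, so 31.9% of the members fell. By adjusted p alone, 9 members were higher and 14 lower at early time (all genes 21.1% and 27.9%), 6 higher and 18 lower at medium time (19.9% and 25.4%), and 3 higher and 26 lower at late time (21.8% and 33.5%). The median log2 fold change of the members was -0.02 early, -0.09 medium and -0.37 late, beside -0.02, -0.02 and -0.13 over all tested genes. TMM scaling and DESeq2 moved the late median of all genes from -0.13 to -0.03 and -0.01, so late values are given relative to it as well. The median of the members relative to that of all genes was -0.24 by edgeR with upper quartile or TMM scaling and -0.25 by DESeq2. The early, medium and late comparisons share the control samples and are not independent of each other.

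**Figure D1:**
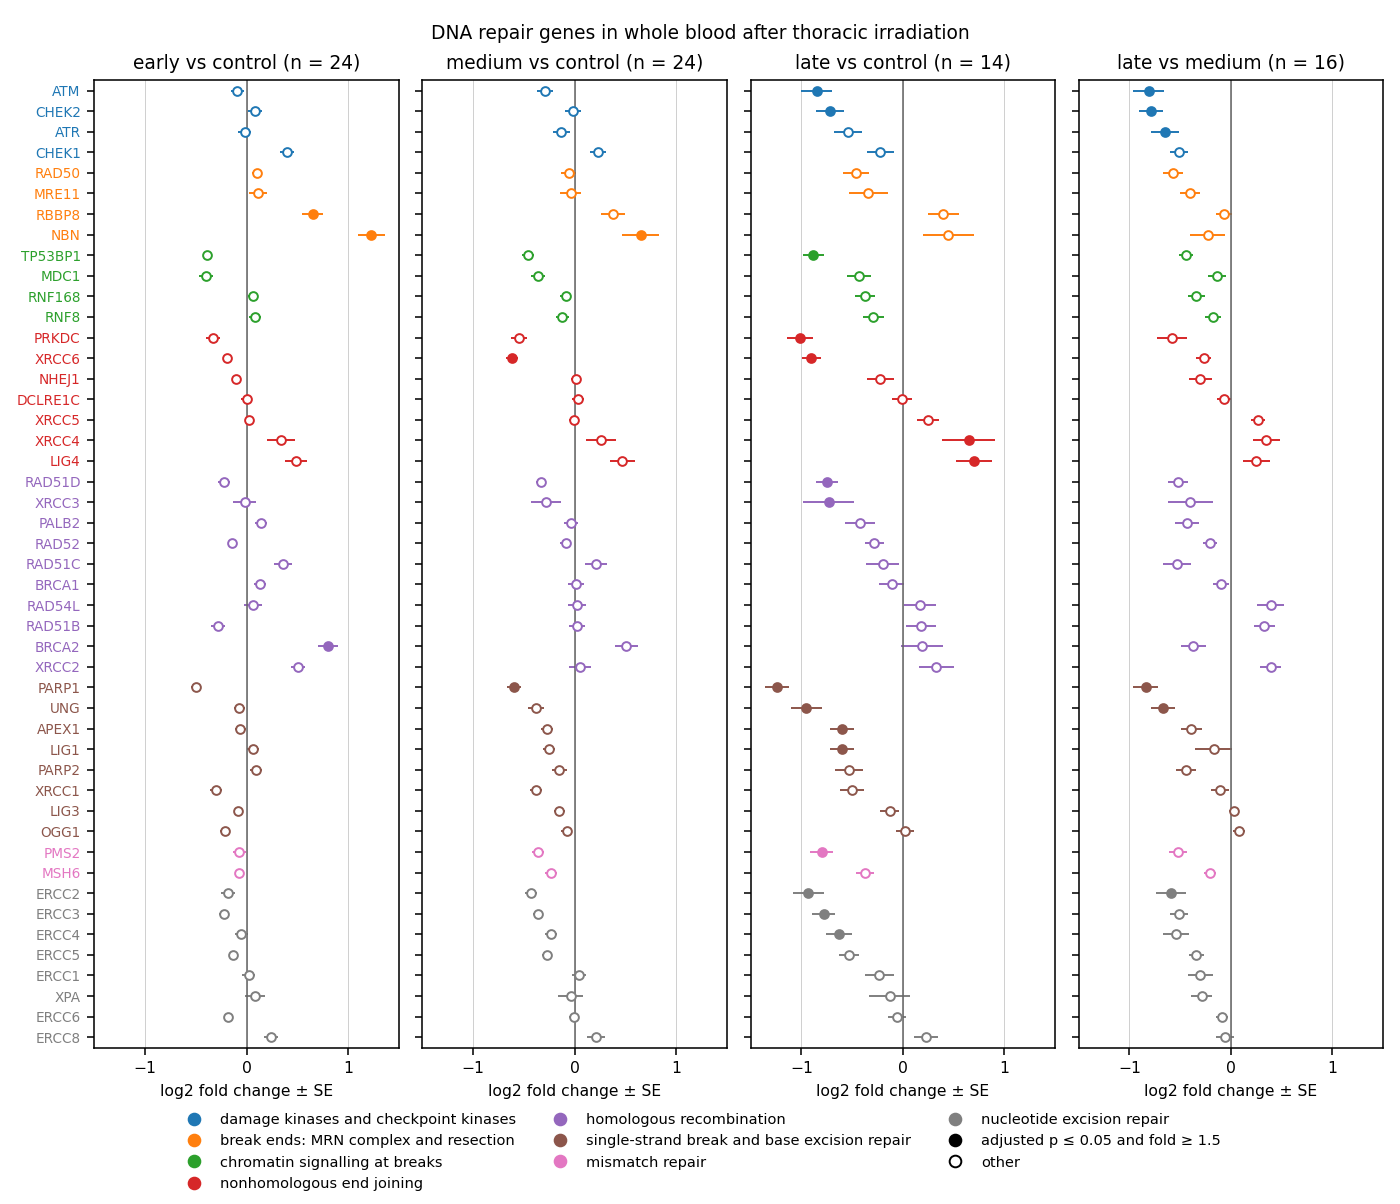
Log2 fold change (x axis, ± standard error) of the 47 repair genes (rows, coloured by role) early, medium and late versus own control and late versus medium, with the number of animals above each panel. Filled points passed an adjusted p of 0.05 and a fold of 1.5, and 3, 3, 17 and 6 points are filled from left to right.

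Of the 4 damage kinases 0 passed both limits early and at medium time, and 2 fell late, where 18.5% of all tested genes fell. ATM, the kinase that answers double-strand breaks, ran from 174 to 421 CPM (median 369) in the controls of the 14 late animals and from 110.8 to 297 CPM (median 176) in the same animals late. It was lower in 13 of 14 animals, though the ranges overlapped. ATM fell by 0.85 ± 0.15 on the log2 scale (adjusted p = 0.000207), after -0.09 early (adjusted p = 0.228) and -0.29 at medium time (adjusted p = 0.00681, below the fold limit). CHEK2, a checkpoint kinase that ATM activates, went from 8.29 to 19.0 CPM (median 13.7) to 3.72 to 13.0 CPM (median 8.30) and fell by 0.72 ± 0.14 (adjusted p = 0.000315), with all 14 animals lower. ATR, the kinase of stalled replication, had a late log2 fold change of -0.54 ± 0.14 (adjusted p = 0.00321), below the fold limit. CHEK1, the checkpoint kinase downstream of ATR, had an early value of 0.40 ± 0.07 (adjusted p = 2.65e-05, higher in 23 of 24 animals). Its late value was -0.22 (adjusted p = 0.165).

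The genes of the break ends gave the largest early rise. NBN, the subunit of the MRN complex that recruits ATM, ran from 36.1 to 401 CPM (median 157) in 24 controls and from 79 to 1074.8 CPM (median 357) early. All 24 animals had a higher level early than in their own control, and 9 were above the highest control. NBN rose by 1.23 ± 0.13 (adjusted p = 1.44e-08), and the estimate ran from 1.12 to 1.28 over all alternatives tried. RBBP8, which starts the resection of ends, went from 3.52 to 23.7 CPM (median 16.7) to 16.1 to 42.5 CPM (median 22.7). It rose in 23 of 24 animals, by 0.65 ± 0.10 (adjusted p = 4.96e-06). RAD50 and MRE11, the other 2 subunits of the MRN complex, had early values of 0.10 (adjusted p = 0.104) and 0.11 (adjusted p = 0.311). At medium time NBN ran from 68.9 to 1133 CPM (median 245) and was higher in 19 of 24 animals. It rose by 0.65 ± 0.18 (adjusted p = 0.00508). This call rests in part on the Day 40 library named above: without its animal NBN was at 0.55 (adjusted p = 0.00488), below the fold limit. It was also lost with the series covariate (0.52, adjusted p = 0.0891). Late, NBN was at 0.45 ± 0.25 (adjusted p = 0.127), RBBP8 at 0.40 (adjusted p = 0.0249), MRE11 at -0.34 (adjusted p = 0.136) and RAD50 at -0.46 (adjusted p = 0.00747).

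The samples with the highest NBN also had high erythroid markers. The 6 highest NBN levels were 1165 to 3146 CPM, and summed erythroid genes were 32461 to 331674 CPM in these samples, where control samples ran from 1859.5 to 11913 CPM. Erythroid levels were also high in other samples of these days. All samples ran from 6695 to 37495 CPM on Day 6, 6921 to 68885 CPM on Day 21 and 4061 to 44333 CPM on Day 30. The 6 samples with the highest NBN came from 4 animals, 3 of them from the same 9.8 Gy animal on Day 6, 21 and 30. At early time all 10 erythroid genes rose (median log2 fold change 1.63), with a summed level from 7059 to 35828 CPM against 1946 to 12466 CPM in controls, and 5 of 10 proliferation genes rose. The part of these cells in the NBN rise was not tested.

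Of the 4 chromatin signalling genes 2 were lower by adjusted p alone early and at medium time, and all 4 late, when 1 passed both limits. Of all tested genes 27.9%, 25.4% and 33.5% were lower by adjusted p alone in these windows, and 18.5% passed both limits late. TP53BP1, which encodes the adaptor that holds ends for joining, ran from 65.3 to 107.9 CPM (median 81.5) in 24 controls and from 49.7 to 73.7 CPM (median 64.2) early. It was lower in 24 of 24 animals and below the lowest control in 15, with a log2 fold change of -0.39 ± 0.04 (adjusted p = 8.7e-09). Its change was -0.46 at medium time (adjusted p = 4.18e-07). Late it ran from 32.7 to 57.4 CPM (median 41.2), and every one of the 14 animals lay below the lowest of their controls (63.6 CPM). It fell by 0.88 ± 0.10 (adjusted p = 3.07e-06). MDC1, the scaffold that binds the marked histone at breaks, was at 31.3 to 80.7 CPM (median 51.7) in controls and at 30.0 to 52.4 CPM (median 40.2) early, lower in 20 of 24 animals (-0.40 ± 0.07, adjusted p = 1.62e-05). Late MDC1 was at -0.43 (adjusted p = 0.00593), below the fold limit. The ubiquitin ligases RNF8 and RNF168 had early values of 0.08 and 0.06 with adjusted p of 0.219 and 0.248, and late values of -0.29 (adjusted p = 0.0205) and -0.37 (adjusted p = 0.00414).

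Of the 7 end joining genes 2 rose and 2 fell late, where 14% of all tested genes rose and 18.5% fell. PRKDC, the DNA-dependent protein kinase, and XRCC6 were lower at late time while LIG4 and XRCC4, the ligase that seals the ends and its partner, were higher. PRKDC ran from 251 to 513 CPM (median 352) in the controls of the late animals and from 124.4 CPM upward (median 174) late, with every late level below the lowest control. It fell by 1.01 ± 0.13 (adjusted p = 8.56e-06), after -0.33 early and -0.55 at medium time (adjusted p = 0.000232 and 2.33e-06). XRCC6 ran from 232.8 to 377 CPM (median 283) to 130 to 191 CPM (median 158), again with no overlap, and fell by 0.90 ± 0.09 (adjusted p = 1.71e-06). With TP53BP1, these were the 3 members whose late levels all lay below the lowest control of the same animals, which held for 92 of 13751 tested genes (0.669%).

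At medium time XRCC6 went from 188 to 401 CPM (median 292) to 148 to 222.5 CPM (median 194.1), fell in 23 of 24 animals and had a log2 fold change of -0.62 ± 0.06 (adjusted p = 7e-09). This value moved with the library series. In control samples XRCC6 ran from 250 to 382 CPM in series A and from 179 to 236.1 CPM in series C, 2 ranges that did not overlap, and the 4 control samples of series C were all from 10.7 Gy animals. In the 4 animals with samples of the same series XRCC6 was at -0.29 (adjusted p = 0.23), and with series as a covariate at -0.27 at medium time (adjusted p = 0.00201) and at -0.45 at late time (adjusted p = 9.12e-08). PRKDC kept -0.84 late with the covariate and PARP1 -1.31.

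LIG4 ran from 7.22 to 26.4 CPM (median 16.1) in controls and from 15.8 to 34.6 CPM (median 23.8) late. It was higher in 11 of 14 animals and rose by 0.70 ± 0.18 (adjusted p = 0.00258), with 0.50 under the series covariate, below the fold limit. XRCC4 went from 1.11 to 12.5 CPM (median 8.26) to 6.56 to 16.8 CPM (median 10.7), and it rose by 0.65 ± 0.26 (adjusted p = 0.0424) with 10 of 14 animals higher. Both ranges overlapped those of the controls. The XRCC4 call was lost on leaving out any 1 of 8 of the 14 animals (lowest value 0.48, adjusted p up to 0.0842) and with scheduled days only (0.55, adjusted p = 0.0616). The animals with the lowest controls went from 1.11 to 16.8 CPM and from 2.29 to 8.92 CPM. XRCC5, the partner of XRCC6 in Ku, was not called in any window, with 0.02 early, -0.01 medium and 0.25 late (adjusted p = 0.786, 0.847 and 0.0616). The nuclease gene DCLRE1C (Artemis) had -0.01 late (adjusted p = 0.946), and NHEJ1 -0.22 (adjusted p = 0.154).

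**Figure D2:**
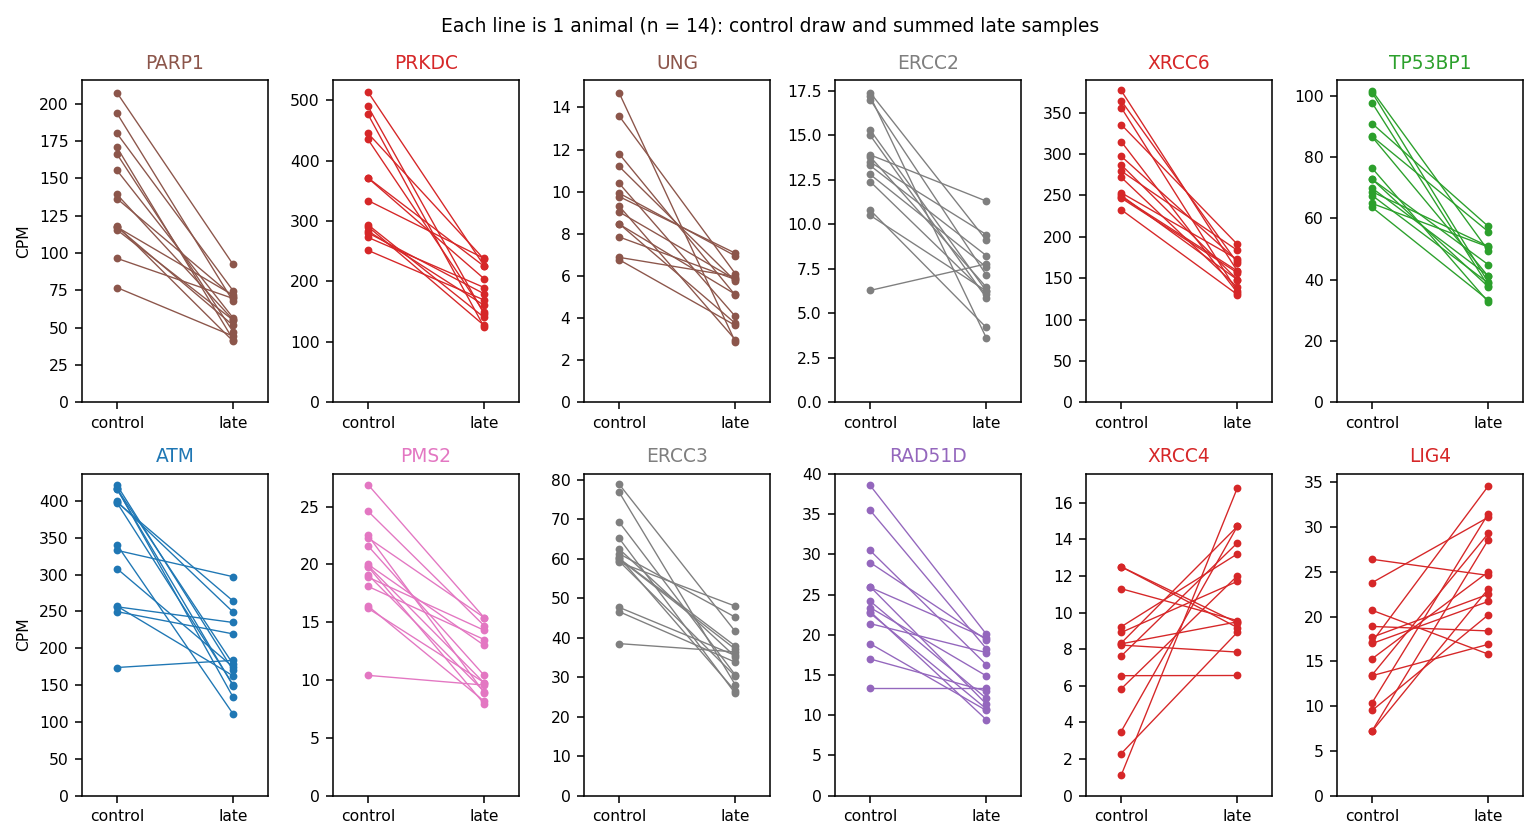
CPM (y axis, from 0) of the 12 named late members in the control draw and in the summed late samples of the same animal, with 1 line for each of 14 animals. PRKDC, XRCC6 and TP53BP1 show no overlap of the 2 columns, and XRCC4 and LIG4 have 10 and 11 rising lines.

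Of the 10 recombination genes 1 rose early and 2 fell late, where 5.79% of all tested genes rose early and 18.5% fell late. BRCA2, a mediator of strand exchange, ran from 2.64 to 11.9 CPM (median 8.47) in controls and from 9.29 to 24.7 CPM (median 14) early. It was higher in 23 of 24 animals and above the highest control in 19, and it rose by 0.80 ± 0.10 (adjusted p = 2.72e-07). At medium time it ran from 8.07 to 28.6 CPM (median 11.4) with a log2 fold change of 0.51 ± 0.11 (adjusted p = 0.000659), below the fold limit, and late it was at 0.19 (adjusted p = 0.47). XRCC2, a recombination gene, had an early value of 0.51 (adjusted p = 2.2e-06, 22 of 24 animals higher), and RAD51C 0.36 (adjusted p = 0.00133). BRCA1 and PALB2, which bring BRCA2 to the break, were at 0.13 and 0.14 (adjusted p = 0.0487 and 0.0501). Lower by adjusted p alone were RAD51B, at -0.28 early (adjusted p = 0.0021), RAD51D at -0.22 (adjusted p = 0.00189) and RAD52 at -0.14 (adjusted p = 0.00268). Late, RAD51D ran from 13.4 to 38.6 CPM (median 23.8) in controls and from 9.45 to 20.1 CPM (median 14.2) after, and fell by 0.75 ± 0.11 (adjusted p = 3.94e-05, 13 of 14 animals lower). XRCC3 also fell (-0.73 ± 0.25, adjusted p = 0.0204), from levels near 1 CPM and with the shared exons given above. PALB2 and RAD52 were lower by adjusted p alone late (-0.42 and -0.28), and RAD54L, which remodels DNA for strand exchange, was at 0.17 (adjusted p = 0.399).

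Of the 8 genes of base excision and single-strand break repair 4 fell late, where 18.5% of all tested genes did. PARP1 had the lowest log2 fold change of all members early, late and from medium to late time. PARP1, which senses nicks and breaks and marks them with poly(ADP-ribose), ran from 81.5 to 220 CPM (median 147) in controls and from 82.1 to 127.5 CPM (median 108.8) early. It was lower in 23 of 24 animals (-0.50 ± 0.05, adjusted p = 1.53e-08), below the fold limit. At medium time it ran from 63 to 142 CPM (median 99.5), was lower in 24 of 24 animals and fell by 0.60 ± 0.07 (adjusted p = 7.26e-08). This value lies near the fold limit, and the call was lost under TMM scaling (-0.57), DESeq2 (-0.56), the series covariate (-0.55) and without the animal of the Day 40 library (-0.58). Late it ran from 40.9 to 92.3 CPM (median 55.8) against 76.8 to 207.4 CPM (median 137.8) in the same animals before irradiation. PARP1 fell by 1.24 ± 0.12 (adjusted p = 6.19e-07), in 14 of 14 animals, and 13 of them were below the lowest control. UNG, the glycosylase that removes uracil, had late levels of 2.88 to 7.08 CPM (median 5.45) against 6.77 to 14.7 CPM (median 9.54). It fell by 0.95 ± 0.15 (adjusted p = 7.21e-05) in 14 of 14 animals, after -0.07 early (adjusted p = 0.279) and -0.38 at medium time (adjusted p = 0.000251). APEX1, the endonuclease that cuts abasic sites, and LIG1, the ligase of long patches and of replication, fell by 0.60 each (± 0.12, adjusted p = 0.000605 and 0.000454). XRCC1, the scaffold of nick repair, was lower by adjusted p alone in each window (-0.30, -0.38 and -0.50). LIG3 and OGG1, its ligase partner and the glycosylase of oxidized guanine, were at -0.13 and 0.02 late (adjusted p = 0.212 and 0.846), and PARP2 at -0.53 (adjusted p = 0.00332).

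Of the genes of mismatch and nucleotide excision repair 1 of 2 and 3 of 8 fell late, where 18.5% of all tested genes did. PMS2, a subunit of the MutL complex, ran from 10.4 to 26.9 CPM (median 19.8) in controls and from 7.94 to 15.4 CPM (median 10.1) late, lower in 14 of 14 animals, and fell by 0.80 ± 0.11 (adjusted p = 2.16e-05). MSH6, which binds mispaired bases, was at -0.37 (adjusted p = 0.00215). ERCC2 and ERCC3 encode the 2 helicases (XPD and XPB) of transcription factor TFIIH. ERCC2 ran from 6.28 to 17.4 CPM (median 13.6) to 3.62 to 11.3 CPM (median 6.81) and fell by 0.93 ± 0.15 (adjusted p = 9.1e-05, 13 of 14 animals lower). ERCC3 ran from 38.5 to 78.9 CPM (median 60.3) to 25.9 to 48 CPM (median 35.3) and fell by 0.78 ± 0.11 (adjusted p = 3.11e-05, 14 of 14 animals lower). ERCC4, a subunit of the nuclease that cuts 5′ of the lesion, fell by 0.63 ± 0.13 (adjusted p = 0.000611), and ERCC5, the nuclease on the other side, was at -0.53 (adjusted p = 0.000296), below the fold limit. ERCC1, the partner of ERCC4, was at -0.23 (adjusted p = 0.157). The damage verifier XPA and the transcription-coupled factors ERCC6 and ERCC8 were at -0.13, -0.06 and 0.23 late (adjusted p = 0.611, 0.597 and 0.127).

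Late levels were also compared with medium levels, without the controls, in 16 animals with samples of both times. These samples were of series B and C at both times and include the late samples of the late comparison. In this comparison 0 members rose and 6 fell (12.8%), where 9.38% of all genes rose and 12.6% fell, so the share of members that fell was near that of all genes. By adjusted p alone 5 were higher (10.6%) and 29 lower (61.7%), against 22% and 42.4% of all genes. The median was -0.30 over the members and -0.19 over all genes, and TMM scaling and DESeq2 moved the latter to -0.10 and -0.06. PARP1 went from 58.9 to 133.2 CPM (median 99.5) to 20.5 to 91.7 CPM (median 55.5) and fell by 0.84 ± 0.12 (adjusted p = 2.81e-05, 15 of 16 animals lower). ATM went from 195.4 to 486 CPM (median 293) to 53.8 to 295 CPM (median 172) and fell by 0.81 ± 0.15 (adjusted p = 0.000166). CHEK2 went from 9.53 to 17.6 CPM (median 14) to 3.70 to 12.9 CPM (median 8.03) and fell by 0.79 ± 0.12 (adjusted p = 4.09e-05), in 16 of 16 animals. These 3 genes were called in every alternative tried for this comparison, which did not include library series. UNG went from 5.38 to 11.1 CPM (median 7.53) to 2.86 to 7.04 CPM (median 5.08) and fell by 0.67 ± 0.12 (adjusted p = 0.000102). ATR went from 56.7 to 100 CPM (median 77.2) to 12.6 to 80.4 CPM (median 53.3) and fell by 0.65 ± 0.14 (adjusted p = 0.000512), and ERCC2 from 6.59 to 13.5 CPM (median 10.1) to 1.43 to 12.3 CPM (median 6.77) and by 0.59 ± 0.15 (adjusted p = 0.00195). The ranges of medium and late levels overlapped for each of these 6 genes. The 5 members higher by adjusted p alone, all below the fold limit, were XRCC2 (0.39 ± 0.10, adjusted p = 0.00207), RAD54L (0.39 ± 0.13, adjusted p = 0.0157), XRCC4 (0.35), RAD51B (0.33) and XRCC5 (0.27). XRCC2 ran from 2.54 to 15.4 CPM (median 7.55) at medium time and from 4.10 to 21.7 CPM (median 10.9) late. The animal with the Day 120 library named above held the lowest late level of 21 members and the highest of 7. Without it 4 members fell, ATR was at -0.55 and ERCC2 at -0.51, both below the fold limit. The ATR and ERCC2 calls were also lost under TMM scaling and DESeq2, and the UNG call under DESeq2.

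The day by day view used each scheduled day against the control of the same animals. At the limits above, 31 of 47 members (66%) were called on at least 1 of 15 days, against 61.9% of all tested genes. Called higher on at least 1 day were 7 members (14.9%, against 28.4% of all genes) and called lower 25 (53.2%, against 37.1%), and RAD51C was called both ways (higher on Day 21 and lower on Day 210). Members called higher and lower were 2 and 0 on Day 3, 3 and 0 on each of Day 6, Day 9 and Day 15, 5 and 1 on Day 21, 1 and 1 on Day 30, and 3 and 1 on Day 40. They were 0 and 2 on Day 60, 1 and 3 on Day 90, 2 and 13 on Day 120, 1 and 14 on Day 150, 1 and 12 on Day 180, 0 and 19 on Day 210 and 0 and 5 on Day 240. The share of all tested genes called in either direction was 11.5% (Day 3), 11.5% (Day 6), 7.58% (Day 9), 6.01% (Day 15), 10.4% (Day 21), 5.90% (Day 30), 6.92% (Day 40), 4.23% (Day 60), 7.06% (Day 90), 31.8% (Day 120), 31.5% (Day 150), 18.7% (Day 180), 29.8% (Day 210), 6.76% (Day 240) and 0.00727% (Day 270). This share covers both directions, so it is to be set beside the higher and lower members of a day together, out of 47. On Day 270, with 6 animals, edgeR called 0 members, 19 had an unadjusted p of at most 0.05, and DESeq2 called 4 higher and 7 lower. On Day 60 DESeq2 called 0. From Day 180 on the same 6 animals were drawn, so the counts of calls on these days come from the same number of animals.

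**Figure D3:**
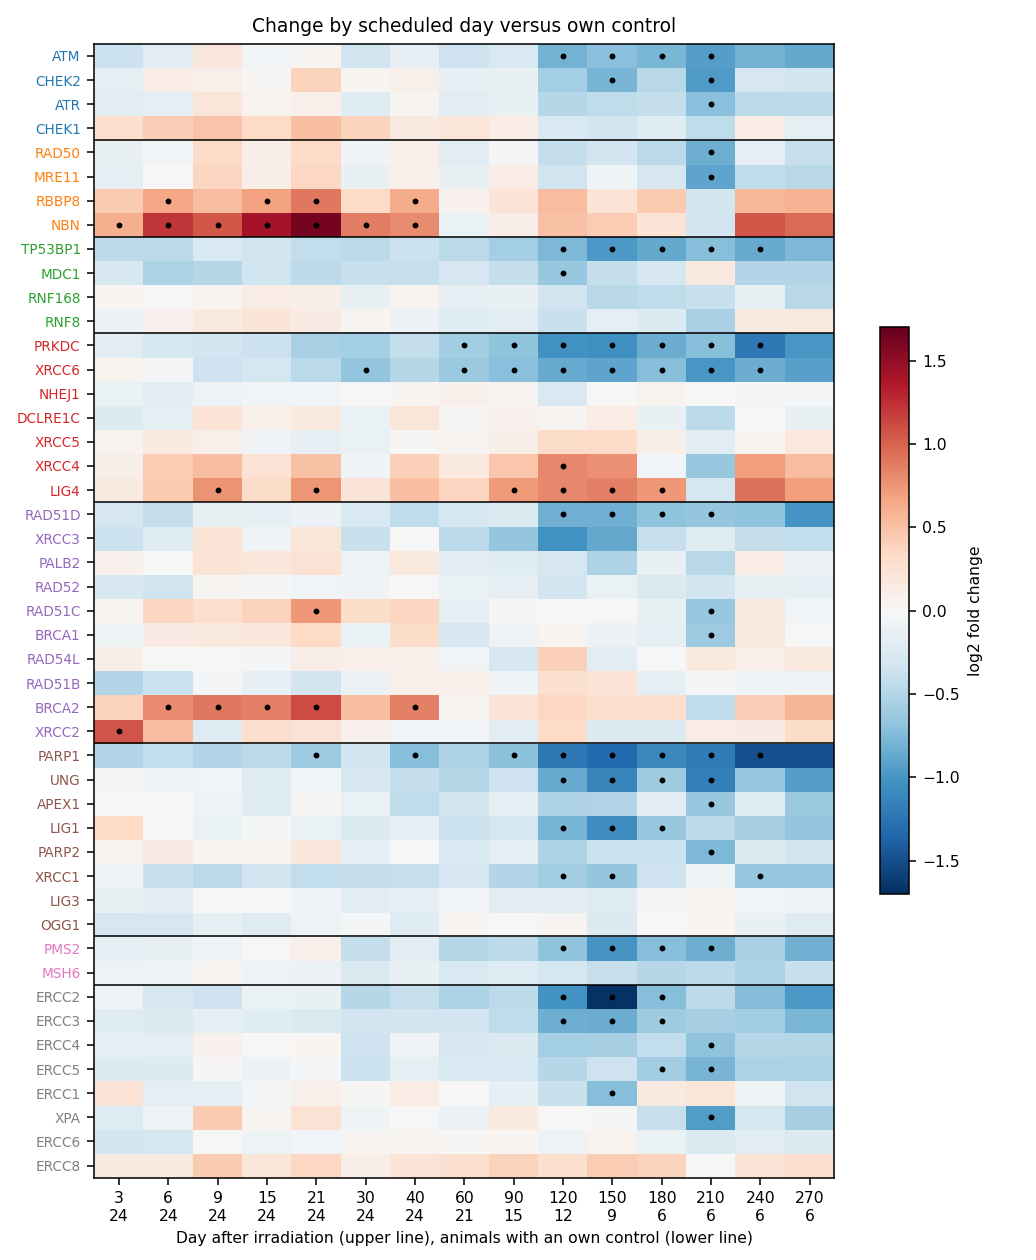
Log2 fold change versus own control (colour, from -1.7 blue to 1.7 red) of the 47 genes (rows, ordered by role) on 15 scheduled days (columns, with the number of animals below). Black dots mark an adjusted p of at most 0.05 with a fold of at least 1.5, and they lie mostly on NBN, RBBP8 and BRCA2 up to Day 40 and on PARP1, PRKDC, XRCC6 and other genes from Day 120.

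The 4 genes called on most days were XRCC6 and PARP1 (8 days, lower), NBN (7 days, higher) and PRKDC (7 days, lower). The NBN median was 150 CPM in controls. It was 195.3 CPM at Day 3, then 342 CPM (Day 6), 420 CPM (Day 15) and 500 CPM (Day 21), where its log2 fold change peaked at 1.63. It was then 246 CPM (Day 30), 269 CPM at Day 40 (highest sample 3146) and 140 CPM on Day 60 (log2 fold change -0.11). After Day 60 NBN was called on no day, with log2 fold changes of 0.11 (Day 90), 0.50 (Day 120), 0.43 (Day 150), 0.23 (Day 180), -0.33 (Day 210, median 112.6 CPM), 1.06 (Day 240, adjusted p = 0.0629, median 309.5 CPM) and 0.96 (Day 270, adjusted p = 0.0925). NBN ran from 108.4 to 1761 CPM between samples on Day 21. PARP1 fell to a median of 95.1 CPM on Day 3 from 140 CPM. Its day medians lay between 89.4 and 107.7 CPM from Day 6 to Day 90, and between 57.2 and 67 CPM from Day 120 to 270. The animals sampled changed between days. In the 6 animals followed to Day 270 the PARP1 median was 147.9 CPM in controls and 110.1 CPM on Day 3. It was 150 CPM on Day 60, 82.9 CPM on Day 90 and 66.4 CPM on Day 120. The lowest log2 fold change of PARP1 was -1.5, on Day 270, and its change was negative on each of the 15 days. PRKDC was also negative on each day, from -0.18 on Day 3 to -1.21 on Day 240, with medians of 346 CPM in controls, 243 on Day 21 and 180 on Day 120. XRCC6 was at 303.5 CPM on Day 3 (0.06), 203 on Day 21 (-0.46) and 148 CPM on Day 210 (-0.99).

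LIG4, BRCA2 and RBBP8 had a log2 fold change above 0 on 14 of 15 days, the exception being Day 210 for each. LIG4 was called on 6 days, from Day 9 (0.77) to Day 180 (0.74), BRCA2 on 5 (highest 1.11 on Day 21) and RBBP8 on 4 (highest 0.89 on Day 21). XRCC2 was called on Day 3 alone, at 1.07 (adjusted p = 1.46e-11). Members with a value below 0 were 39 of 47 on Day 180 and on Day 210. They were 37 on Day 150 and on Day 270, and 34 on Day 30 and on Day 60. On Day 120 they were 33, and on Day 90 and Day 240 they were 32. The median log2 fold change of all tested genes was also below 0 on these days, from -0.17 (Day 150) to -0.03 (Day 30, 60 and 90). All libraries of Day 30, 150, 180 and 210 were of series C, and those of Day 270 were 5 of series C and 1 of series B. Day 60, 90, 120 and 240 held 4, 4, 4 and 2 libraries of series B beside those of series C. Never called on any day were 16 members, among them CHEK1, XRCC5, RAD52, OGG1, LIG3, MSH6, ERCC6 and ERCC8.

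**Figure D4:**
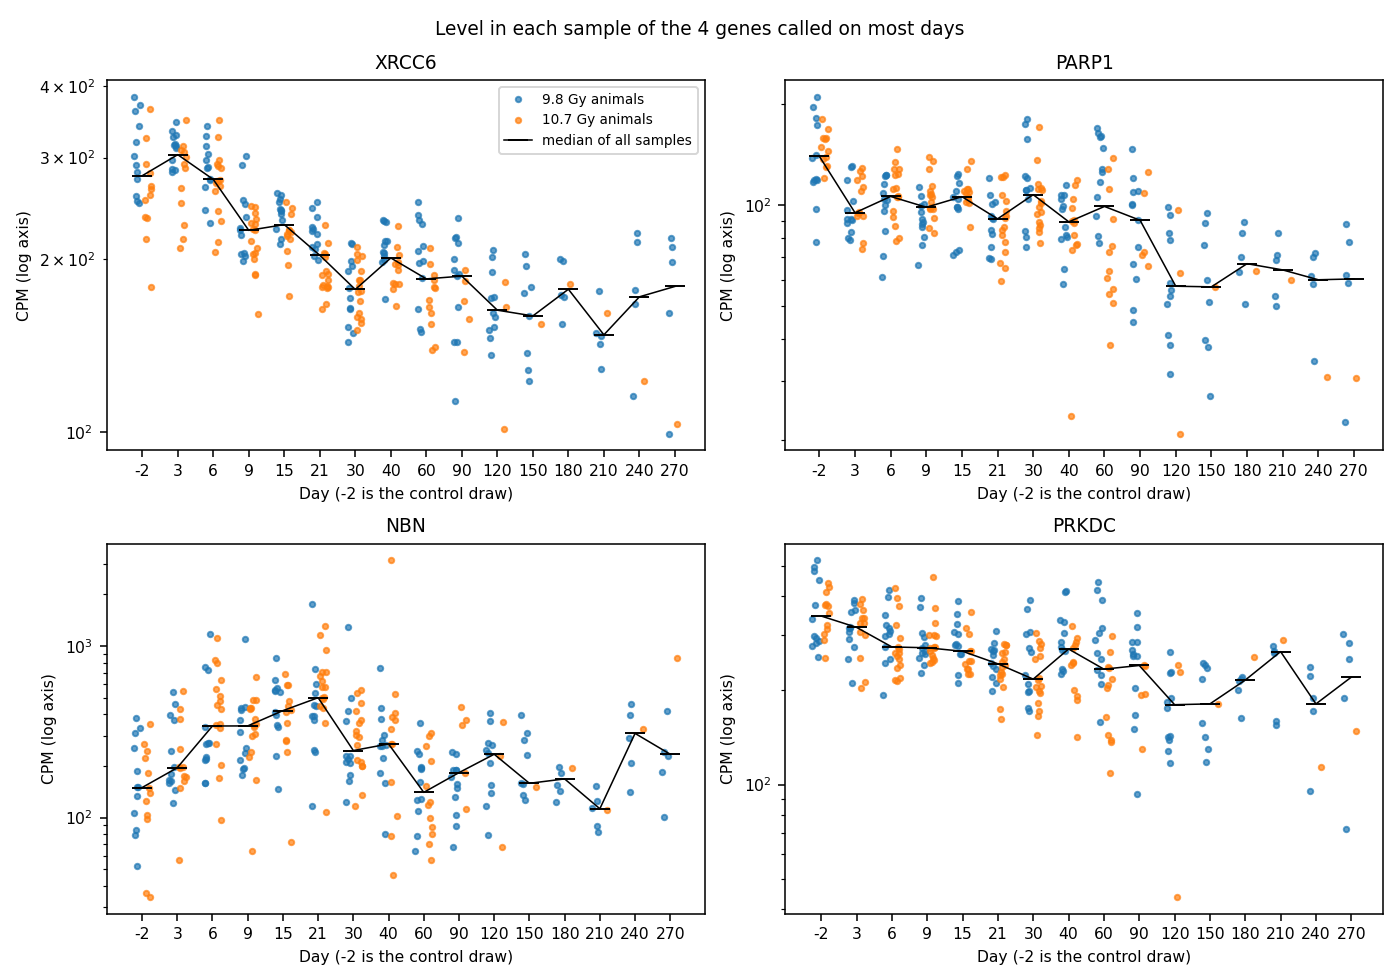
CPM on a log axis of XRCC6, PARP1, NBN and PRKDC in each sample (points, blue for 9.8 Gy and orange for 10.7 Gy animals) on the control draw (Day -2) and 15 scheduled days, with the median of each day as a black line. NBN peaks at a median of 500 CPM on Day 21, and the day median of PARP1 is at or below 67 CPM from Day 120.

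Doses and sexes were compared by the difference between the changes of their animals. At early time 0 members differed between 10.7 and 9.8 Gy (0% of all genes by adjusted p), 1 had an unadjusted p of at most 0.05 and DESeq2 called 0. The differences ran from -0.26 (ERCC1) to 0.32, and their 95% intervals reached from -0.63 to 0.88. NBN changed by 1.3 ± 0.82 (SD, n = 12) at 10.7 Gy and by 1.17 ± 0.60 (SD, n = 12) at 9.8 Gy, a difference of 0.11 with an interval from -0.42 to 0.63. Between males and females 0 members differed at early time (0% of all genes), 0 had an unadjusted p of at most 0.05 and DESeq2 called 0. The differences ran from -0.20 to 0.17, with intervals from -0.60 to 0.57. At medium time 6.78% of all genes differed between doses by adjusted p, and 1 member did (2 by DESeq2). ATM changed by -0.53 ± 0.37 (SD, n = 12) at 10.7 Gy and by -0.05 ± 0.34 (SD, n = 12) at 9.8 Gy, a difference of -0.48 ± 0.14 (adjusted p = 0.0396, below the fold limit). Of the other members with an unadjusted p of at most 0.05, RAD54L was higher at 10.7 Gy (0.43, adjusted p = 0.101), and PARP1 (-0.33, adjusted p = 0.0838), ATR (-0.43, adjusted p = 0.063), ERCC4 (-0.30, adjusted p = 0.063) and ERCC6 (-0.21, adjusted p = 0.204) were lower, and all 5 missed the limit. Dose moved with library series: control samples of 9.8 Gy animals were all of series A, and those of 10.7 Gy animals were 8 of series A and 4 of series C. Over all animals, medium samples of 9.8 Gy were 14 of series B and 34 of series C, and those of 10.7 Gy were 5 and 42. The ATM median was 371 CPM in medium samples of series B and 249.9 CPM in those of series C. Day 90 had 12 samples of 9.8 Gy and 5 of 10.7 Gy animals, so the days summed also differed between doses. The part of series and days in the dose difference was not tested in the medium samples. In the animals with a control of series A the ATM difference was -0.62 (adjusted p = 0.0104), but it was lost without the replicate block (adjusted p = 0.319) and with TMM scaling (adjusted p = 0.056).

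Other repair genes were counted in the same way. Of 88 further genes of these pathways, 84 passed the filter. At early time 10 rose (11.9%, against 5.79% of all genes) and 1 fell. At medium time 1 rose and 1 fell (1.19% each, against 4.48% and 1.27%). At late time 2 rose (2.38%, against 14%) and 15 fell (17.9%, against 18.5%), and from medium to late time 0 rose and 8 fell (9.52%, against 12.6%). By list, early rises were 6 of 21 genes of recombination and Fanconi anemia, 3 of 17 of break signalling and 1 of 10 of end joining, and 0 of 14 genes of base excision, 0 of 3 of mismatch and 0 of 19 of nucleotide excision repair. The largest early rises were FANCL (1.28 ± 0.17), the ubiquitin ligase of the Fanconi pathway, BABAM1 (1.01 ± 0.09), of the BRCA1-A complex, and BRIP1 (0.97 ± 0.10), a helicase that binds BRCA1, with adjusted p of 3.25e-07, 2.88e-10 and 2.69e-09. FANCL rose also at medium time (1.16 ± 0.20, adjusted p = 3.31e-05), and DNTT, the template-free polymerase of antigen receptor joints, fell then (-0.67 ± 0.15, adjusted p = 0.000573). The lowest late values were those of DNTT (-1.56 ± 0.27, adjusted p = 0.000131) and POLM (-1.33 ± 0.21, adjusted p = 6.37e-05), both polymerases of end joining in lymphocytes, and of the glycosylase NTHL1 (-0.96 ± 0.14, adjusted p = 2.55e-05). POLM (-1.29), DNTT (-0.95) and GEN1 (-0.82), a resolvase of crossed strands, led from medium to late time.

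Blood cell markers moved in the same windows. All 10 B cell genes fell late (median log2 fold change -1.98), with a summed level of 372 to 2672 CPM in controls and 153 to 615 CPM late, lower in 14 of 14 animals. Of 10 T cell genes 7 fell, from 1256 to 3296 CPM to 581 to 2003.7 CPM, lower in 13 of 14 animals. All 7 neutrophil genes rose (740 to 7722 CPM in controls and 3885 to 11197 CPM late), and so did all 7 platelet genes. At early time 9 of 10 B cell genes fell and 0 of 10 T cell genes was called, and at medium time 6 and 1 fell. None of the marker genes tested was at 0 in all animals of a group. From medium to late time the 10 B cell genes and 7 of 10 T cell genes fell as well (medians -1.66 and -0.68). The part of a change in cell numbers in the levels of PARP1, PRKDC, XRCC6 and the other members that fell late was not tested.

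Base composition also moved with the changes. Members that were higher early by adjusted p had a median exon GC content of 41.1% and those lower 50.8%, beside 45.9% and 55% over all tested genes. At late time these medians were 38% for the 3 higher members and 47.6% for the 26 lower ones, beside 47.6% and 52.6% over all tested genes. Across the 47 genes, Spearman's rho between exon GC content and log2 fold change was -0.64 early, -0.61 at medium time, -0.46 late and -0.02 from medium to late time, and it was -0.37, -0.24, -0.16 and 0.01 over 13655 genes. With the deposited log2 values rho was -0.70, -0.62, -0.48 and -0.06 for the 47 genes and -0.44, -0.28, -0.20 and -0.03 for all genes. Genes share libraries and depth and are not independent, so this is a description. ATM, which fell late, has exons of 38.9% GC. The methods of the study name a sample-specific influence of GC content on measured expression and describe conditional quantile normalization for it. The edgeR fits here used counts without that step. The part of base composition in these changes was not tested.

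**Figure D5:**
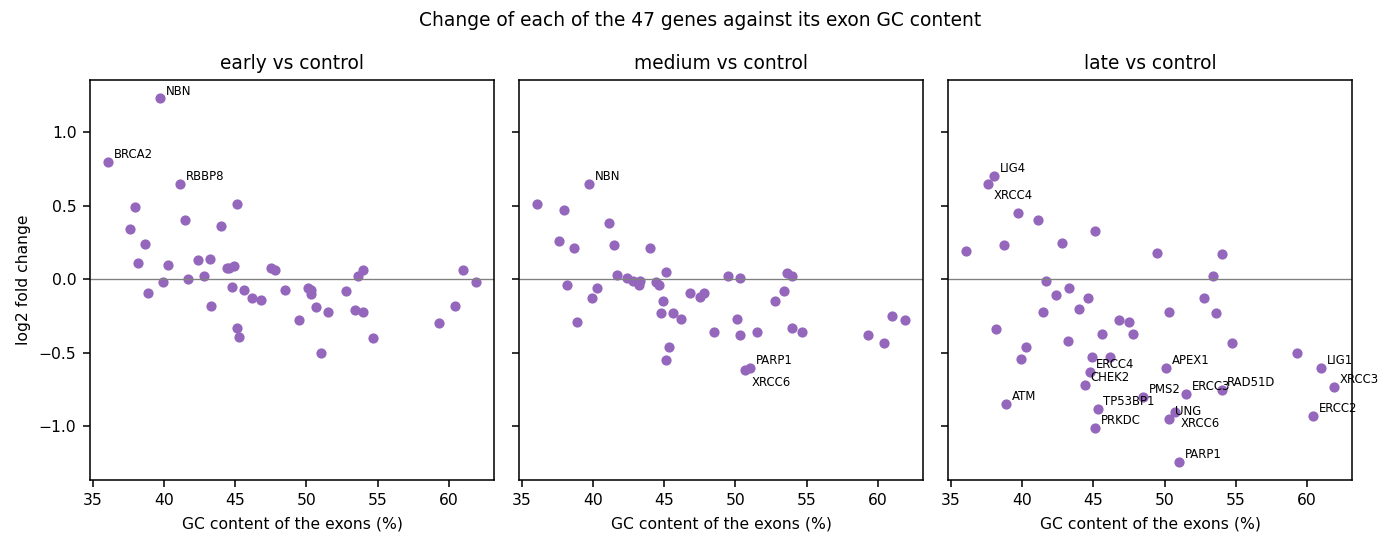
Log2 fold change (y axis) of the 47 genes early, medium and late versus own control against the GC content of their exons in percent (x axis), with 1 point a gene and names for genes past both limits. NBN, BRCA2 and RBBP8 have 39.7, 36.1 and 41.1% GC in the early panel, and ATM is the fallen gene with the lowest GC content in the late panel.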

How the data were processed

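Whole blood RNA (rRNA-depleted, stranded kit) was sequenced in 304 samples. The authors trimmed reads with cutadapt 2.10, aligned them to Mmul_10 with STAR 2.7.6a and assigned them to RefSeq genes with Subread 2.0.1. They deposited raw counts (21070 genes) and upper quartile scaled log2 values (16730 genes), and the strand setting of counting was not given in the sources used here. Genes with at least 3 counts in 80% of samples (13751) were tested. Counts were summed per animal and time window, and each scheduled day with at least 6 animals was fitted separately. edgeR 4.0.16 (quasi-likelihood, upper quartile scaling, default prior count, R 4.3.3) was run with animal as the block, and p-values were adjusted over all tested genes by Benjamini-Hochberg. Dose and sex were tested as interactions. Samples pair by animal: deviations of an animal's samples correlated with a median of 0.61 early, 0.45 medium, 0.26 late and 0.52 from medium to late, over 0.1 in 24 of 24, 23 of 24, 10 of 14 and 15 of 16 animals.

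Totals per sample ran from 2840219 to 23638161 counts, which bounds the precision of low genes. Genes described with all their values were, per comparison, up to 10 members past both limits with the largest change and the 2 highest and 2 lowest past adjusted p alone, and the 4 called on most days. The rest are given by role. Members and lists were chosen with earlier results of these data known. Alternatives were TMM scaling, DESeq2 1.42.0, limma 3.58.1 on the log2 values, no block, no filter, scheduled days only, library series, and each animal left out. Library series was not an alternative from medium to late time. On simulated data with 200 of 13751 genes changed 3-fold, edgeR recovered 200 with 24 animals and 199 with 6. Both simulations used the depth of early samples summed per animal. Recovery at the depth of a single day, or of smaller folds, was not tested. Figures were drawn with matplotlib 3.10.9. Some items are not reported here.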

Additional observations from a re-analysis of the deposited data

Results flagged for a closer look

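The medium-time change of ATM differed between doses by -0.48 on the log2 scale (10.7 minus 9.8 Gy, 12 animals each, edgeR adjusted p = 0.0396), a difference in response between groups of animals. It missed the adjusted limit without the replicate block and under TMM scaling. Dose and the library series of the control moved together, and the part of the series was not tested beyond the animals with a control of series A. The medium samples also differed between doses in series and in the days summed. The fit was not repeated without the animal of the Day 40 library.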

How the results depend on the processing

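Early, 3 members were called under every alternative that kept the fold limit, and by adjusted p alone 23. At medium time the 3 calls became 1 with DESeq2, 6 (2 higher, 4 lower) in the 4 animals with samples of 1 series, 0 with series as covariate and 24 by adjusted p alone. The 17 late calls ranged from 13 to 16 under other settings and were 29 by adjusted p alone. From medium to late time the 6 calls became 3 with DESeq2, 3 without the filter and 34 by adjusted p alone. For the medium dose difference, 0 members passed both limits, 1 passed by adjusted p alone and 1 passed both in animals with a control of series A, an alternative chosen after seeing the data. Leaving out 1 animal gave 3 to 3 early, 1 to 3 medium, 13 to 18 late and 4 to 8 from medium to late. Without the replicate block (animal) the counts were 3, 3, 15 and 5, and 31 over the days. The day count of 31 ran from 27 to 31 and was 45 by adjusted p alone. Of the values of single named genes over these settings, 683 kept their side of the limits, 46 did not, and 0 changed sign. Without the block XRCC4 late was at 0.56 and ERCC2 from medium to late at -0.52. UNG and ATR from medium to late were at -0.57 and -0.54 without the filter. Late samples of the control's series were not fitted, since 1 animal had one. The causes were not tested. Counts under 20 a sample, as for XRCC3, limit precision.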
